A study of Pilatotrama ljubarskyi with 14 samples.

Results

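Strain BRFM1659 of Trametes ljubarskyi, a white-rot fungus, was compared between cultures on aspen wood and cultures on Avicel, a microcrystalline cellulose. The genes are those of the deposited table whose mean log2 normalized read count was at least 4 on aspen or on cellulose, which held for 851 of 878 genes. The mycelium grew in shaken flasks at 30 °C, for 3 days, in a mineral medium with yeast extract and some maltose. The aspen group received aspen wood at 15 g/l, milled to 1 mm. The cellulose group received Avicel at 15 g/l and maltose at 2.5 g/l. The amount of maltose in the aspen medium is printed incompletely in the labels, so effects of soluble sugar and of wood in place of cellulose cannot be told apart. Of the other groups, wheat straw and pine were each given as fragments under 2 mm at 15 g/l with 2.5 g/l of maltose, and the last had maltose alone at 20 g/l. Particle size, and perhaps maltose, thus differed between aspen and the other plant materials. Their effects cannot be told apart from those of the material. All groups share 1 strain, and each is represented by 3 polyA RNA libraries, except pine with 2.

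White-rot fungi secrete cellulases, hemicellulases and oxidative enzymes, among them laccases and peroxidases, that together open the wood cell wall. Avicel offers a purified, largely crystalline cellulose, while aspen, a hardwood, holds cellulose embedded in xylan-rich hemicellulose and lignin. In many wood-decay fungi the genes of such enzymes respond to the polymers present and are held low by sugars that are taken up readily. The table gives gene numbers of a genome portal without names or functions, so none of the genes below is assigned to any of these enzyme classes. They are referred to by number.

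Levels are given as mean log2(normalized reads + 1), the unit of the deposited table. A level is relative to the other reads of its library, so a change in 1 gene's RNA per cell and a change in the amount of other RNA cannot be told apart. The reads of single libraries were recovered from the digits of the deposited means for 777 of 878 genes on aspen and for 733 on cellulose. Values above 12.54 on either substrate were not solved. The libraries of each substrate are named A to C in order of falling depth and are not matched to the replicate numbers in the labels. Over the recovered genes the aspen libraries held 929354, 814122 and 771041 reads and the cellulose libraries 882607, 875314 and 737151. The median SD between libraries was 0.13 on aspen and 0.22 on cellulose (log2, n = 3 each). Whether the replicates were grown as separate cultures is not stated in the labels, and the p-values measure only the spread between these libraries.

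Many more genes were lower on aspen than on cellulose than were higher. A gene was called changed at a limma adjusted p under 0.05 and a log2 difference of at least 1. On that rule 297 of the 851 genes changed, 87 of them higher and 210 lower on aspen. Over all 867 genes tested, 34.6% were called, 10.1% higher and 24.5% lower, so that the 851 genes are nearly the whole of the table tested. The median change among the higher genes was 1.53 on the log2 scale (2.89-fold), and among the lower genes it was -1.69 (3.22-fold). A change of at least 4-fold was found for 31 higher and 77 lower genes, at least 8-fold for 10 higher and 25 lower genes, and at least 16-fold for 5 higher and 9 lower genes. A further 261 genes passed the adjusted p with a difference under 2-fold.

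Reads in all 6 aspen and cellulose libraries were recovered for 689 of the 851 genes. Among the 69 higher genes with such reads, 68 had all 3 aspen libraries above all 3 cellulose libraries, where 30.2% of the 689 genes showed that order. Among the 133 lower genes, 133 had all aspen libraries below all cellulose libraries, where 38.8% of the 689 did. The same libraries entered the calls, so this order describes the called genes and is no further support for them. The other 18 higher and 77 lower genes have no recovered reads on at least 1 of the 2 substrates, mostly because the level was too high, and their standard errors leave out the spread there.

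**Figure D1:**
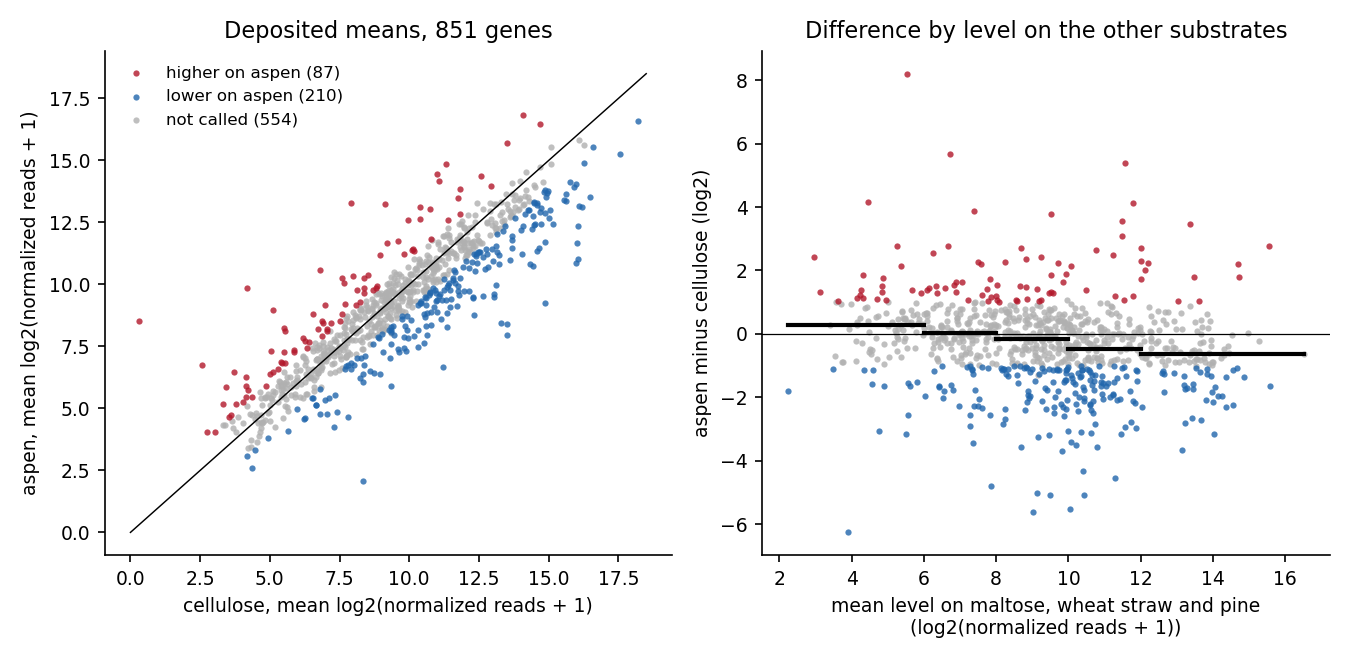
Left, the deposited mean level of 851 genes on aspen (vertical) against cellulose (horizontal), both as log2(normalized reads + 1), with the line of equal level; red genes were called higher on aspen (87), blue genes lower (210) and grey genes not called (554). Right, the log2 difference of aspen minus cellulose against the mean level on maltose, wheat straw and pine; thick lines are the median difference of the genes in each range of level, which runs from 0.29 below level 6 to -0.63 at level 12 and above.

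The excess of lower genes lay mostly among genes with many reads. To sort the genes by level without using the aspen or cellulose values, their mean over maltose, wheat straw and pine was taken. Of 100 genes with a mean under 6, 19 were higher and 13 lower on aspen, and the median difference was 0.29. Between 6 and 8, 22 of 170 genes were higher and 27 lower, with a median of 0.01. From 8 to 10 the counts were 23 higher and 63 lower of 246, and from 10 to 12 they were 12 higher and 72 lower of 207, with a median of -0.49. Of 128 genes at 12 or above, 11 were higher and 35 lower, with a median of -0.63. The median over all 867 genes tested was -0.21, so the changes of genes with many reads are to be read against a general shift in the same direction. After each library was shifted to a common median over the genes with reads in all 14 libraries, 98 genes were higher and 191 lower. The shift of the aspen relative to the cellulose libraries was -0.08, so it removed only part of the -0.21. For 664 genes the reads of all 14 libraries are known, and 69 of them rose while 121 fell. Quantile normalization of these libraries gave 91 that rose and 95 that fell, so the excess of lower genes depends on the scaling.

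Summed over the 851 genes, the deposited means brought back from the log2 scale came to 2383677 normalized reads on aspen and 4300024 on cellulose. The 87 higher genes made up 21.3% of that sum on aspen and 2.57% on cellulose. The 210 lower genes made up 29.7% on aspen and 65.1% on cellulose. These are shares of reads, in which long genes count for more. A level of 14 or more was reached by 23 genes on aspen and by 66 on cellulose. The sums cover only the genes of the table and are no measure of total RNA.

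The gene with the most reads on aspen was 1054873, and on cellulose it was 54315; both were singled out after their values were seen. Gene 1054873 had a mean of 16.85 on aspen and 14.07 on cellulose, a difference of 2.77 ± 0.30 (SE; limma adjusted p = 0.000792). Its reads were recovered on pine alone, where 67098 and 92976 reads gave a mean of 16.62. Of its own libraries only those 2 entered its error (SD 0.73). The error was made smaller by limma's moderation toward the spread of other genes, so it is little guide to this gene's own spread. Gene 54315 had a mean of 16.58 on aspen and 18.19 on cellulose and fell by 1.62 (SE 0.16; limma adjusted p = 0.0001). On maltose it stood at 7.56, so it was lower on aspen than on cellulose while both lay far above the maltose level. Of its own libraries, only those of pine and maltose entered its error, which limma also moderated toward other genes.

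The largest rise on aspen was that of gene 969524. It had 415, 408 and 409 reads in the aspen libraries A, B and C, and 0, 1 and 0 reads in the cellulose libraries. The depth-scaled read ratio of aspen to cellulose was 1211 (exact 95% interval 217 to 47875, for counting error alone). The gene was thus near the limit of detection on cellulose and clearly present in every aspen library. On the log2 scale the difference was 8.20 ± 0.40 (SE; limma adjusted p = 3.48e-09), a size that rests on the 1 added before taking logarithms. Its other levels were 9.32 on wheat straw, 6.93 on pine and 0.31 on maltose, where 1 read was seen in 3 libraries.

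Gene 953491 had 1336, 998 and 864 reads on aspen and 35, 32 and 6 on cellulose. The groups lay far apart, and cellulose library C was lower than the other cellulose libraries. The difference was 5.67 ± 0.56 (SE; limma adjusted p = 1.81e-06), or 50.9-fold, and it was 4.96, or 31.0-fold, without cellulose library C. On wheat straw its mean was 7.53, between those of aspen (9.86) and cellulose (4.19), and on pine, at 10.30, it was close to aspen.

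Gene 962148, at far fewer reads, had a similar order of substrates. Its reads were 162, 110 and 97 on aspen and 4, 6 and 7 on cellulose, a difference of 4.16 ± 0.40 (SE; limma adjusted p = 1.37e-06). Pine gave 193 and 147 reads but wheat straw 12, 10 and 8. Both wood substrates thus stood apart from straw, cellulose and maltose for this gene, and the aspen level exceeded the straw level by 3.24 ± 0.40 (SE; limma adjusted p = 2.22e-05).

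Among genes with a mean of at least 12 on aspen or cellulose, the largest rises were those of genes 998652 and 976644. Gene 998652 had a mean of 13.30 on aspen, without recovered reads, and of 7.91 on cellulose, with 269, 308 and 232 reads. This was a rise of 5.38 ± 0.16 (SE; limma adjusted p = 9.68e-09), where the error leaves out the spread on aspen. The level was nearly flat across the plant materials, at 13.36 on wheat straw and 13.47 on pine, and on maltose, at 7.90, it was close to that on cellulose.

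Gene 976644 showed the same arrangement. Its mean was 13.23 on aspen, 13.25 on wheat straw and 13.22 on pine, against 9.11 on cellulose and 8.92 on maltose. The rise over cellulose was 4.11 ± 0.77 (SE; limma adjusted p = 0.00121). Its reads were not recovered on aspen, and the cellulose libraries had 675, 577 and 604. The large error includes the spread on maltose, where library B, with 2310 reads, stood far above the 209 and 230 of the others. Genes 969524, 953491, 998652, 962148 and 976644 are the 5 that rose at least 16-fold.

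The largest fall on aspen was that of gene 872085, which had 3, 4 and 4 reads on aspen and 342, 373 and 369 on cellulose. The log2 level fell by 6.26 (SE 0.41; limma adjusted p = 4.03e-08), or 76.6-fold. The libraries of each substrate were close together and the groups did not overlap. Its means of 1.86 on pine and 3.67 on wheat straw were also low, while maltose stood at 6.15. With so few reads on aspen, the size of the fall is less certain than its direction.

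Gene 970997 was low on aspen alone. It had 104, 127 and 111 reads on aspen and 3053, 2491 and 2365 on cellulose, and fell by 4.53 (SE 0.28; limma adjusted p = 2.70e-08), or 23.2-fold. Its means on wheat straw, pine and maltose, at 10.92, 10.87 and 12.06, were close to the 11.20 on cellulose or above it. Aspen minus wheat straw came to -4.26 ± 0.28 (SE; limma adjusted p = 4.65e-07), and aspen minus pine to -4.21 ± 0.31 (SE; limma adjusted p = 2.57e-06). Those comparisons share the aspen libraries with the one against cellulose.

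Genes 981021 and 624051 had the largest falls among genes with a mean of at least 12. Gene 981021 had 619, 755 and 700 reads on aspen, a mean of 9.25, and a mean of 14.88 on cellulose. It fell by 5.62 (SE 0.19; limma adjusted p = 1.47e-09). Cellulose was its highest substrate by far, with 10.35 on wheat straw, 8.79 on pine and 7.92 on maltose. Gene 624051 had 379, 225 and 270 reads on aspen, a mean of 7.98, and a mean of 13.51 on cellulose, and fell by 5.53 (SE 0.16; limma adjusted p = 8.58e-10). It differed from gene 981021 in being high on maltose as well, at 12.15, while wheat straw (8.76) and pine (9.23) were low. Reads of genes 981021 and 624051 on cellulose were not recovered, and their errors leave out the spread there.

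**Figure D2:**
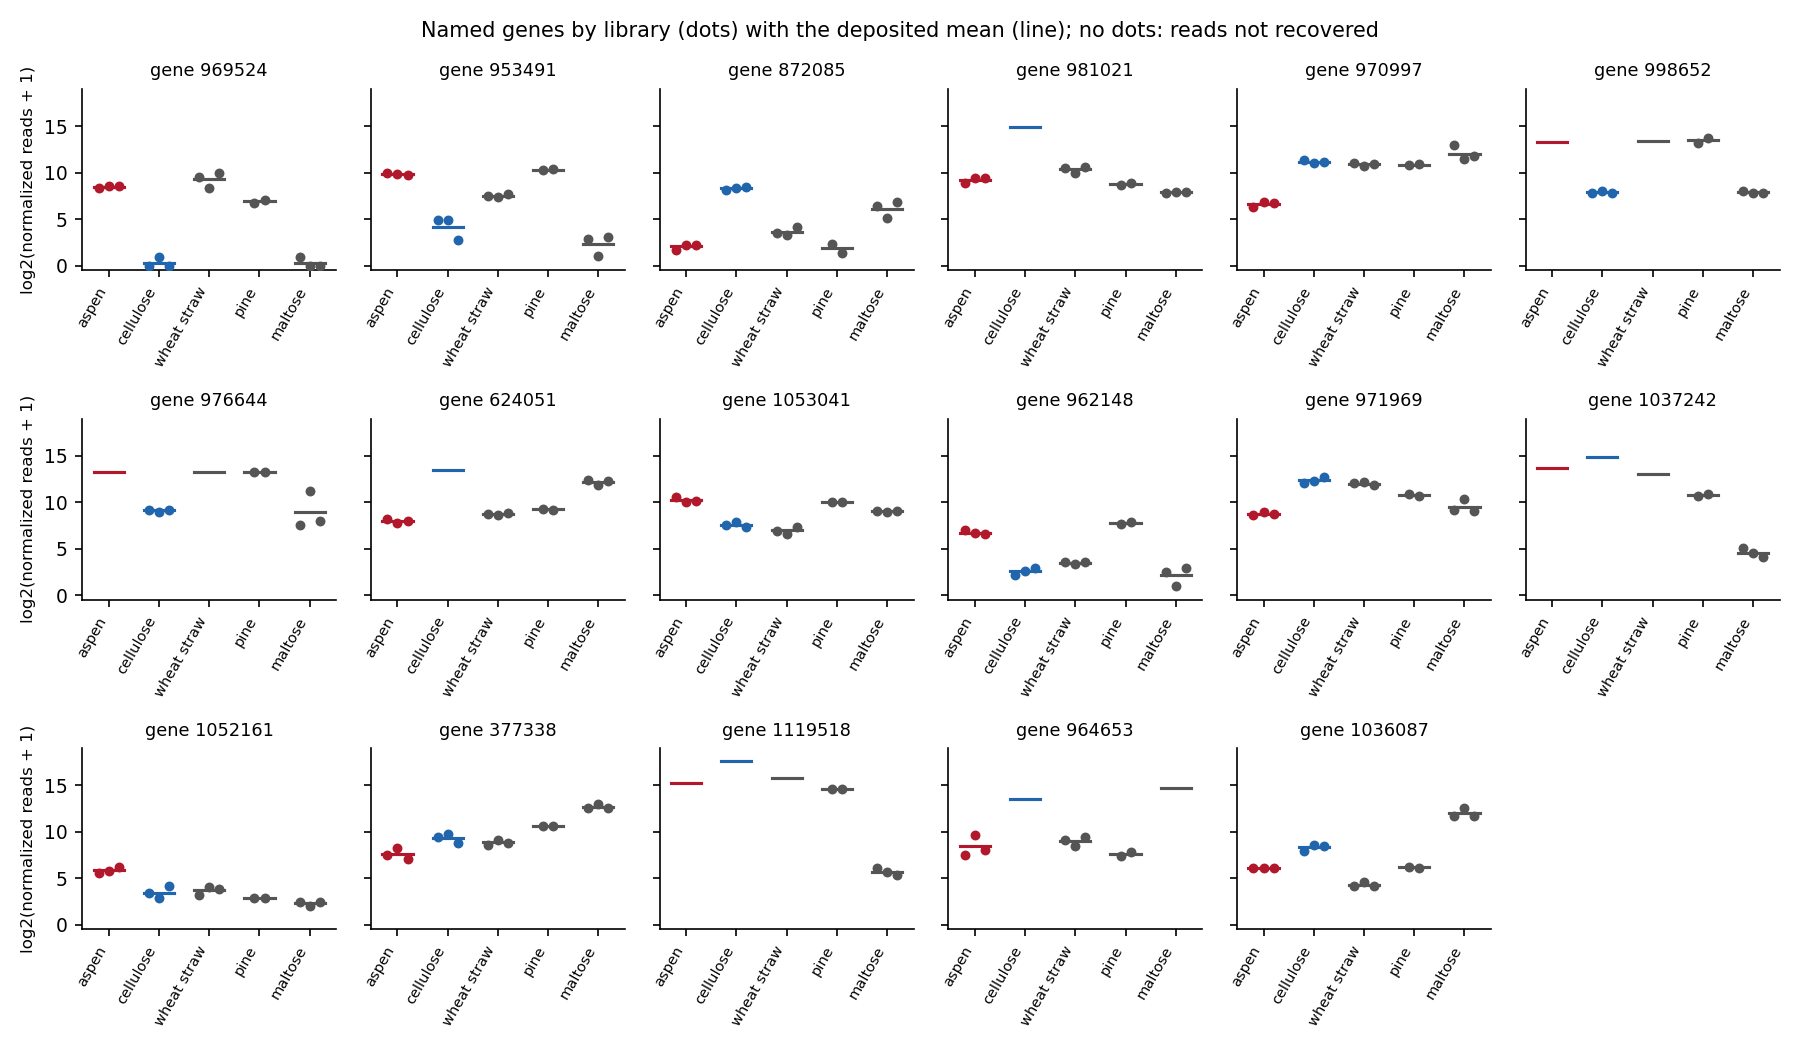
The 17 genes named by rule, each with its level as log2(normalized reads + 1) on aspen (red), cellulose (blue), wheat straw, pine and maltose (grey); dots are libraries and lines deposited means, and a line without dots marks reads that were not recovered. Gene 970997 is low on aspen alone, genes 998652 and 976644 lie near 13 on all 3 plant materials, and gene 981021 is high on cellulose alone.

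The changed genes were then placed on the other substrates by their deposited means. Pine was mostly nearer to aspen for the genes that were higher on aspen. Of these 87 genes, 69 had a pine level nearer to the aspen level than to the cellulose level, and 35 lay above both. On wheat straw 39 of 87 were nearer to aspen, with 50 between the aspen and cellulose levels and 25 above both. On maltose 28 of 87 were nearer to aspen, and 37 lay below both. In median level the 87 genes stood at 8.98 on aspen, 7.06 on cellulose, 8.98 on pine, 8.12 on wheat straw and 7.20 on maltose.

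For the 210 genes that were lower on aspen, wheat straw and pine lay mostly between aspen and cellulose, with 140 and 123 genes there. Nearer to the aspen level were 132 genes on pine, 102 on wheat straw and 111 on maltose. Pine was below both for 68 genes and wheat straw for 37. Their median level was 9.54 on aspen, 11.43 on cellulose, 10.63 on wheat straw, 10.15 on pine and 9.53 on maltose. Among genes that differed at least 4-fold, the straw level was nearer to aspen for a larger share, 67.7% of the higher and 59.7% of the lower genes.

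The order over all 5 substrates differed between the directions. Of the 87 higher genes, 42 had their highest mean on aspen, 28 on pine, 13 on wheat straw and 4 on maltose, and the lowest was on cellulose for 40 and on maltose for 36. Of the 210 lower genes, 116 had their highest mean on cellulose and 60 on maltose, and 99 had their lowest on aspen and 76 on maltose. Cellulose highest together with aspen lowest was found for 42 of the 210. These are orders of means, and neighbours in the order were not tested against each other.

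**Figure D3:**
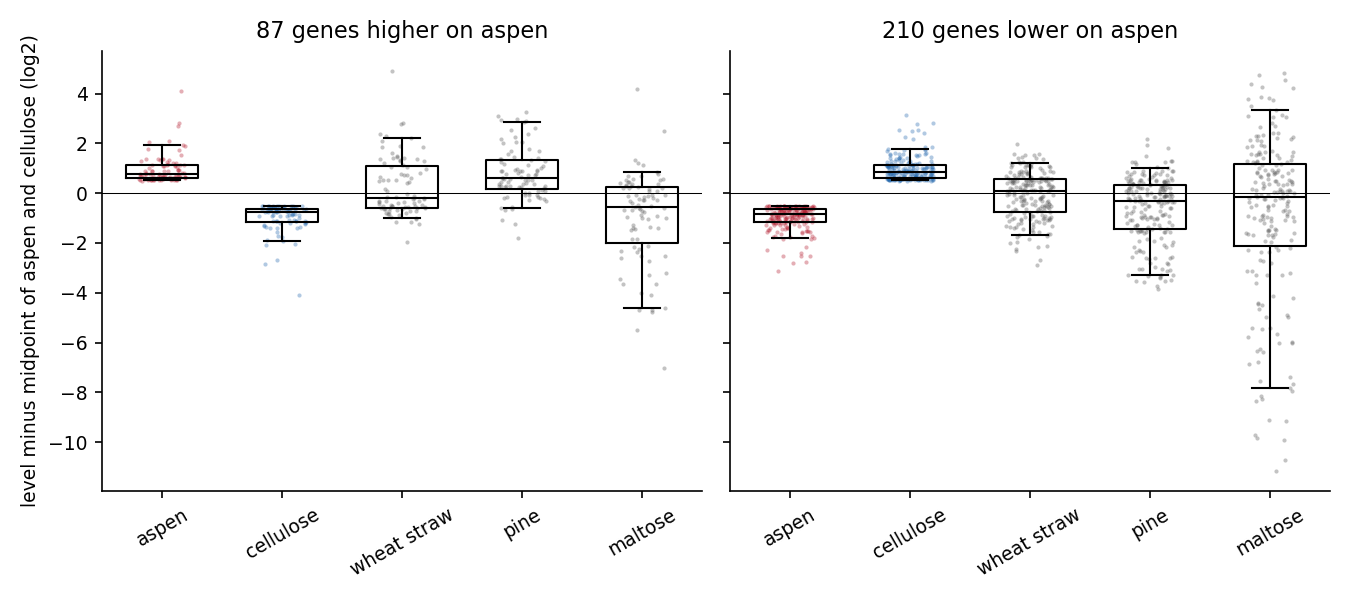
Level of each changed gene on the 5 substrates, as the log2 difference from the midpoint of its aspen and cellulose means, for the 87 genes higher on aspen (left) and the 210 genes lower on aspen (right); points are genes, boxes the quartiles with the median, and whiskers the central 90%. The split between aspen and cellulose is fixed by the choice of genes; the pine values of the higher genes lie mostly on the aspen side, and the maltose values of the lower genes spread widely to either side.

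The lower genes fell into 3 sets of similar size by their level on maltose, the soluble sugar. In 78 genes maltose was below both aspen and cellulose, with median levels of 10.85 on aspen, 12.99 on cellulose and 7.56 on maltose. These genes were low on sugar alone. Their higher level on cellulose than on aspen is fixed by the choice of genes. In 69 genes maltose lay between. In 63 genes it was above both, with median levels of 8.31 on aspen, 10.30 on cellulose and 11.58 on maltose. That the step down was larger on aspen than on cellulose in this set follows from the choice as well. Of the 87 higher genes, 37 had maltose below both, with medians of 10.27 on aspen, 8.37 on cellulose and 6.74 on maltose, 44 had it between and 6 above both.

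Gene 1119518 is the extreme of the first kind, with the largest difference of pine minus maltose among the changed genes. Its mean was 15.27 on aspen and 17.57 on cellulose, and it fell by 2.29 (SE 0.20; limma adjusted p = 4.81e-05). On maltose it had 74, 48 and 37 reads, a mean of 5.70. Reads were recovered on pine (22706 and 16438) and maltose only, so the error leaves out aspen and cellulose.

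Genes 964653 and 1036087 are extremes of the other kind, with the largest falls of pine relative to maltose. Gene 964653 had 232, 891 and 281 reads on aspen, where library B was well above the others, and its mean was 8.42 on aspen, 13.50 on cellulose and 14.69 on maltose. It fell by 5.07 on aspen relative to cellulose (SE 0.50; limma adjusted p = 2.21e-05), or 33.6-fold, with no recovered reads on cellulose. Without aspen library B the fall was 52.3-fold. Gene 1036087 had 89, 70 and 68 reads on aspen and 291, 435 and 376 on cellulose, a fall of 2.27 (SE 0.24; limma adjusted p = 3.42e-06). Maltose, with 3543, 6088 and 2963 reads, was far above both. On wheat straw, with 19, 24 and 13 reads, it was lower still than on aspen.

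Comparisons among maltose, wheat straw and pine take their differences from libraries other than those of aspen and cellulose. The calls are not independent of the choice of genes, since each gene has 1 estimate of spread from all 5 substrates that enters every comparison. Of the 87 higher genes, 51 were called higher on pine than on maltose (58.6%) and 7 lower (8.05%), where 29.5% of all genes tested were called higher and 18% lower. The median difference of pine minus maltose was 1.26 in the higher genes and 0.33 over all genes tested. Against maltose, wheat straw was called higher for 39 of the 87 (44.8%) and lower for 12 (13.8%), beside 28.4% and 19.3% of all genes. The higher genes were therefore raised over maltose more often than the table as a whole on either plant material. On wheat straw this was not particular to them, as 40.5% of the 210 lower genes were called higher too. On pine that share of the lower genes was 32.9%.

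The 210 lower genes were spread in both directions. On pine, 69 were called higher than on maltose (32.9%) and 60 lower (28.6%), beside the 29.5% and 18% given above. On wheat straw, 85 were called higher than on maltose (40.5%) and 57 lower (27.1%), beside 28.4% and 19.3% of all genes tested. Without maltose library B, which deviated most from its group mean, the share of lower genes called higher on straw was 47.9%. It is taken over 169 of the 210 genes, those tested in that fit, and not over the same genes as the 40.5%. Of all 765 genes of that fit, 29.8% were called higher. Over the 210 genes of the full fit, the median difference was -0.03 for pine minus maltose and 0.40 for wheat straw minus maltose.

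The genes higher on aspen tended to be higher, and the genes lower on aspen lower, on pine than on wheat straw. Pine was called higher than wheat straw for 25 of the 87 higher genes (28.7%) and lower for 4 (4.60%), where 7.5% and 9.92% of all genes tested were called. Of the 210 lower genes, 7 were called higher (3.33%) and 56 lower (26.7%) on pine than on wheat straw. The median of pine minus wheat straw was 0.63 in the higher genes, -0.51 in the lower genes and 0.04 over all genes tested. Of the 554 genes not called between aspen and cellulose, 32 were called higher and 25 lower on pine than on wheat straw. A 4-fold threshold was also applied to both comparisons at once. The share called lower on pine was then 6.45% of 31 higher genes and 6.49% of 77 lower genes, beside 2.19% of all genes tested. Only 19 of the 867 genes tested were called lower there, too few to say whether the directions still differed. The shares called higher were 12.9% and 1.30%, beside 1.04% of all.

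**Figure D4:**
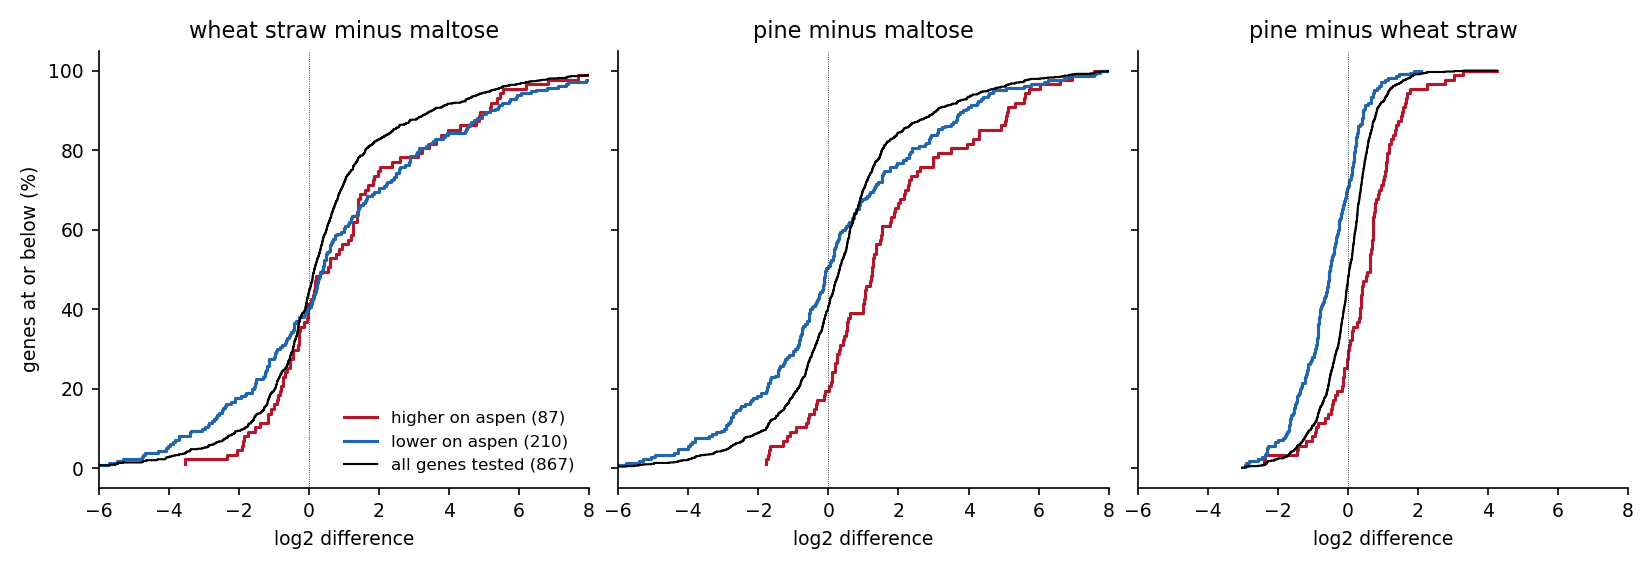
Cumulative share of genes (vertical, in percent) at or below each log2 difference (horizontal) in 3 comparisons that use no aspen or cellulose library, for the 87 genes higher on aspen (red), the 210 genes lower on aspen (blue) and all 867 genes tested (black). In pine minus wheat straw the red curve lies to the right of the black one and the blue curve to the left, with medians of 0.63, -0.51 and 0.04; in wheat straw minus maltose the red and blue curves lie close together over most of the range above 0. Values outside -6 to 8 are not drawn.

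Set directly against the other plant materials, aspen was called higher than wheat straw for 6.23% and lower for 17.2% of all genes tested, and higher than pine for 7.27% and lower for 16.6%. These comparisons share the aspen libraries with that against cellulose, and particle size and perhaps maltose differ in them as well as the material. In the 87 higher genes the median difference was 1.53 for aspen minus cellulose, 0.84 for aspen minus wheat straw and 0.23 for aspen minus pine. In the 210 lower genes the medians were -1.69, -0.87 and -0.52.

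Gene 1053041 had the largest rise of aspen over wheat straw among the changed genes, ahead of gene 962148. It had 1997, 1156 and 1200 reads on aspen and 225, 266 and 161 on cellulose, a difference of 2.70 ± 0.20 (SE; limma adjusted p = 1.13e-07). Wheat straw, with 136, 102 and 125 reads, was lower than cellulose, and aspen exceeded it by 3.30 ± 0.20 (SE; limma adjusted p = 3.34e-07). The mean of 10.28 on aspen was close to that of 10.02 on pine, which had 989 and 668 reads. The difference between aspen and pine, 0.26 ± 0.22, did not pass the test (limma adjusted p = 0.349).

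Gene 971969 fell with gene 970997 at the other end. It had 511, 530 and 443 reads on aspen and 4931, 5461 and 7169 on cellulose, a fall of 3.57 (SE 0.30; limma adjusted p = 3.65e-07). Wheat straw, at 12.01, was close to the 12.34 on cellulose. Pine, at 10.81, lay between, and maltose, at 9.52, was nearer to the 8.77 on aspen.

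Genes 1037242 and 1052161 had the largest rises of aspen over pine. Gene 1052161, with few reads on any substrate, was highest on aspen, with 61, 56 and 78 reads there, 11, 7 and 17 on cellulose and 6 and 4 on pine. It rose over cellulose by 2.41 ± 0.35 (SE; limma adjusted p = 6.03e-05), and the aspen libraries lay above all others. Gene 1037242 was lower on aspen than on cellulose, with means of 13.73 and 14.83, a difference of -1.10 ± 0.24 (SE; limma adjusted p = 0.00516). Its pine level was 10.73 and its maltose level 4.57. Of its own libraries, only those of pine and maltose entered the error, as no other reads of this gene were recovered.

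Gene 377338 was lower on aspen than on pine, where it fell by 3.06 (SE 0.33; limma adjusted p = 9.73e-06). On aspen it had 226, 328 and 135 reads and on cellulose 839, 975 and 462, a fall of 1.76 (SE 0.29; limma adjusted p = 0.000174). The aspen libraries were all below the cellulose libraries. Maltose, with 6262, 7945 and 5471 reads, was the highest of the 5 substrates.

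The 554 genes that were not called were not all alike. For 374 of the 851 genes the difference, taken 1.96 standard errors to either side, stayed within 1 on the log2 scale, so that a change of 2-fold lies outside that interval. For 2 genes a difference of at least 2-fold was seen without passing the adjusted p. At the edge of the choice of genes, 974379 (4.05 on aspen and 2.73 on cellulose) and 815518 (4.05 and 3.02) were just inside, and 1054587 (3.97 and 3.94) and 1039327 (3.07 and 3.93) were just outside. Of 16 tested genes outside the 851, 1 was called higher and 2 lower on aspen.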

How the data were processed

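Polyadenylated RNA of mycelium was sequenced as paired-end reads, per the labels' protocols. Per the submitters' processing notes the tools were TopHat2, HTSeq and DESeq 1.5, with no settings stated. The deposited table holds log2 normalized read counts, 1 mean per substrate, per the file headers. No source used here says how the 878 genes were chosen. The genes, lists and tests were chosen with earlier results of these data known.

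Each deposited mean was taken as the mean over libraries of log2(count × factor + 1). A starting factor per library was solved from the lowest values of each column and accepted on the 14 lowest. The factors were then refined by least squares on low values with exactly 1 solution. Whole counts were searched that give the deposited number within the rounding of 15 significant digits. A library could differ from the mean by up to 6 (log2), less at high levels, down to 0.5, so that at most 0.05 chance solutions were expected per value. Only values with exactly 1 solution were used, 3923 of 4390 (89.4%). Of the rest, 437 lay above the searchable range, 15 gave more than 1 solution and 15 gave none. Of 3953 values deliberately shifted off their true digits, 21 gave 1 solution. This leaves out high levels with a wide spread.

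Differences are those of the deposited means. The spread came from the recovered libraries of all 5 substrates in 1 model, moderated with limma 3.58.1 (R 4.3.3) with a mean-variance trend, two-sided, with Benjamini-Hochberg adjustment over the 867 genes with log2 of at least 4 in at least 2 libraries. Where a substrate had no recovered reads, it was assumed to vary like the others. Over the recovered genes the median SD was 0.22 on cellulose and 0.24 on maltose. It was 0.13 on aspen, 0.13 on wheat straw and 0.12 on pine. The errors of genes without recovered reads on cellulose may therefore be too small. All 9 residual degrees of freedom were available for 648 of the 851 genes. The search for counts, with the factors given, was tested on simulated aspen and cellulose libraries. The calling of genes was tested on simulated libraries of all 5 substrates, drawn with 1 spread per gene for all of them. It therefore could not check the effect of a spread that differs between substrates. The other calculations were not tested on simulated data. The recovery used Python 3.11.15, numba 0.67.0 and NumPy 2.4.6.

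As the gene numbers carry no names, at most 2 rises and 2 falls were named for each of 6 choices. They are the largest called differences of aspen minus cellulose, over all 851 genes, over those with reads in all 6 libraries and over those at 12 or more on either substrate. Among the changed genes, they are the largest called differences of aspen minus wheat straw, of aspen minus pine and of pine minus maltose. Intervals of read ratios cover counting error only, and the total depth of a library is unknown. The alternatives were other filters, scalings, pseudocounts, thresholds and recovery limits, fewer libraries in the fit, and each aspen and cellulose library left out.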

Additional observations from a re-analysis of the deposited data

How the results depend on the processing

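No paired analysis was possible because the deposited columns are means and the recovered libraries carry no replicate number. The 297 calls (87 higher and 210 lower on aspen) were within 1.5 times under other filters on low values, a median shift, a fit without a trend, an adjusted p under 0.01, recovered values up to level 11 and a fit of only the 6 aspen and cellulose libraries. Counts that moved further mostly did so with fewer genes tested. With the fit limited to the 664 genes that have reads in all 14 libraries, 190 were called (69 higher, 121 lower), the same 190 as in the full fit. This base and the fit without maltose library B were added after the data were seen. On these genes a pseudocount of 0.5 gave 191 (121 lower) and one of 8 gave 172 (112 lower). Quantile normalization gave 186, of which 91 were higher and 95 lower, so that the excess of lower genes nearly vanished. It kept 156 of the 190 calls. With reads in all 6 libraries required, 133 genes were lower. A threshold of 4-fold gave 108 calls (31 higher, 77 lower), and no threshold on size gave 558 (193 higher, 365 lower).

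Leaving out 1 aspen or cellulose library gave 205 to 255 calls, 65 to 88 higher and 126 to 184 lower, over the 722 or 766 genes with reads on that substrate. Without cellulose library A, B or C, 126, 129 and 137 genes were lower, and of the 133 lower genes that could be tested, 124, 123 and 122 were called again. With the 4-fold threshold, the share nearer to aspen was 67.7% on wheat straw for higher genes, and 59.7% on wheat straw and 75.3% on pine for lower genes. With it, 3.23% of the higher genes were called lower on wheat straw than on maltose (9.34% of all genes tested) and 0% on pine than on maltose (8.88% of all). On pine against straw, 12.9% of the higher genes and 1.30% of the lower genes were called higher (1.04% of all). Called lower were 6.45% of the higher and 6.49% of the lower genes (2.19% of all), nearly the same share, though few genes were called. Without maltose library B, 169 of the 210 lower genes were tested. Of these 169, 47.9% were called higher on wheat straw than on maltose, beside 29.8% of all genes in that fit. The set of genes thus differs from that of the full fit. The cause was not tested. In 323 of 326 refits of named genes the call held. The 3 exceptions, genes 1037242, 377338 and 54315, have changes under 4-fold and missed the 4-fold threshold by definition. Most of these genes were named for large called differences, and refits that could not test a gene are not counted. The count is therefore little further support for the calls. Depth limits genes 969524 and 962148 on cellulose and maltose, 872085 on aspen and pine, 953491 on maltose and 1052161 on pine and maltose, with at most 7 reads in any library there.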
